A study of Mus musculus with 12 samples.

Results

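Primary tumors that SCC-7 cells had formed in mice were compared with the same cell line kept in culture, across every annotated gene on the array. SCC-7 is an established murine squamous cell carcinoma line. The 5 primary tumors (primary tumor 1 to 5, 1 from each of 5 animals) had grown from SCC-7 cells placed in the floor of the mouth of BALB/c-nu mice and had been taken out by microsurgery. BALB/c-nu mice are athymic nude animals, so their T cell compartment is strongly reduced. No transgene or drug was named for either group, and the age and sex of the mice were not given in the sources used here. The 2 SCC-7 samples, SCC-7 (1) and SCC-7 (2), were replicates of the parental line grown in medium with serum. Nothing in the descriptions says that they came from separate cultures, so p-values measure the spread between these samples, which on the cell line side may be technical. These 7 arrays were chosen by their titles from the 12 of the series, and the 5 recurrences were left out.

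A solid tumor in an animal is a mixed tissue. Beside the cancer cells it holds blood vessels, fibroblasts that lay down collagen, pericytes, macrophages and other immune cells, and, at its border, pieces of the organ it grows into. For the floor of the mouth these are salivary glands, skeletal muscle, fat, nerve and lymphoid tissue. A cell line in a dish has none of these, and it lives in serum and plastic rather than on blood supply. Since host and cancer cells are both murine, the probes read the sum of both, and in such bulk samples fewer cells of a type and less RNA per cell cannot be told apart.

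Levels below are log2 normalized intensities, and a difference is the mean of the 5 tumors minus the mean of the 2 SCC-7 arrays, so that a difference of 1 is a 2-fold change. A probe was taken as above background where under 1 in 100 negative control entries reached its brightness, and 17354 probes above background on at least 2 of the 7 arrays were tested. A gene was read from its brightest tested probe and was called when its limma p-value, adjusted by the Benjamini-Hochberg method over all tested probes, was under 0.05 and the difference at least 2-fold. Of 9899 named genes tested, 600 (6.06%) were called higher and 327 (3.3%) lower in the tumors, and the median difference over all genes was -0.11. By probe, 837 (4.82%) were called higher and 646 (3.72%) lower. The split of calls depended on the scaling. With median scaling in place of quantile normalization 590 genes were called higher and 110 lower, which raised the share of higher calls from 64.7% to 84.3% and put the median of all genes at 0.11.

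The tumors were far less alike than the SCC-7 samples. The 2 SCC-7 arrays correlated at 0.995 across probes and a median probe differed between them by 0.105, against 0.189 to 0.679 between pairs of tumors. Primary tumors 2, 4 and 5 correlated with each other at 0.967 to 0.983, and with SCC-7 at 0.884 to 0.8925. Primary tumor 1 correlated with the SCC-7 arrays at 0.7933 and 0.7927, and primary tumor 3 at 0.6819 and 0.6825. Each tumor had more probes above background (15043 to 17083) than either SCC-7 array (13711 and 13868). The calls rested on both SCC-7 arrays. Without SCC-7 (1) 148 genes were called higher and 17 lower, and without SCC-7 (2) 131 and 16, in fits where the lone culture sample was assumed to vary like the tumors. Without primary tumor 3 the counts were 892 and 502 of 9450 genes, and without primary tumors 1 and 3 they were 1161 (12.6% of 9203 genes) and 580 (6.3%). Calls thus rose across all genes when primary tumor 3 was left out.

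**Figure D1:**
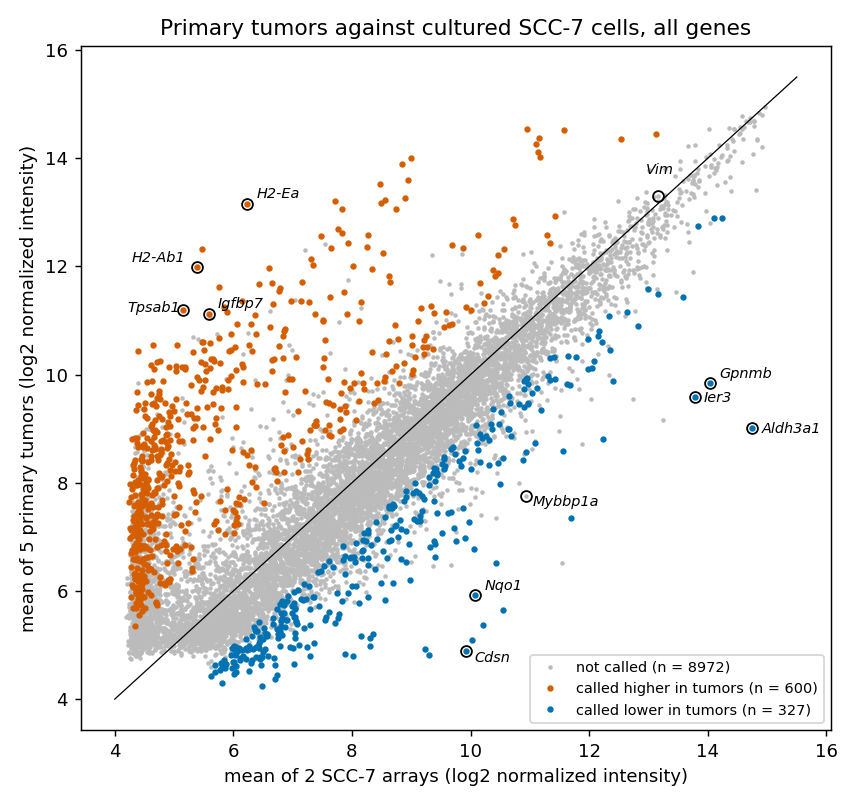
Mean log2 normalized intensity of each of 9899 genes in the 2 SCC-7 arrays (x axis) and the 5 primary tumors (y axis), with the line of equal levels. The 600 genes called higher reach from the left edge, at SCC-7 background, upward, while the 327 called lower include genes such as Aldh3a1 and Gpnmb that were among the brightest of cultured cells.

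The cell line was checked against markers of its label. On both SCC-7 arrays the epithelial genes Krt8, Krt18, Krt14 and Krt17 (keratins), Itgb4 and Lamb3 (basement membrane attachment) and Trp63 (the p63 regulator of squamous epithelium) were above background. These were 7 of the 12 measured genes of the list, with Krt17 near background at 5.71 on both arrays. The other 5 measured genes were at background in SCC-7. Of the 22 listed genes 10, among them Krt5 and Epcam, were not measured. Since 19 of the 22 had a probe, most of these 10 were above background on fewer than 2 of the 7 arrays. Cdh1, which encodes E-cadherin, was not above background on either SCC-7 array, at 5.36 and 5.05, and was above background in primary tumors 1 and 3 only. Vim, the mesenchymal filament vimentin, was at 13.2 and 13.1 in SCC-7 and at 11.6 to 14.3 in the tumors. The cultured cells thus carried keratin and p63 transcripts, with the 1 tested Cdh1 probe at background and vimentin bright. The study reported E-cadherin protein in SCC-7 cells, which fell when Mybbp1a was silenced. The 1 probe therefore does not show that E-cadherin was absent.

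On the side of the tumors, 626 genes (6.32%) were above background in all 5 tumors and on neither SCC-7 array, and 347 of these were called higher. In the opposite sense 49 genes (0.495%) were above background on both SCC-7 arrays and in no tumor. A filter that keeps a gene through the tumors alone favors such a difference, so the numbers describe what was detected and are not a test. The same holds for every list and gene below with no SCC-7 array above background. For Igfbp7, Igf1, Egfl7, Cxcl16 and Thy1 only 1 SCC-7 array was above background, so their differences are partly fitted against background. Among the genes described below, Emcn, Cxcl1, Cxcl9, Ccl19, Ccl21a, Cxcl13, Trib3, Sqle, Mcm4, Krt17, Krt18, Vim and Twist2 were chosen after their values were seen, and their values are descriptions. So was Xist, the RNA that coats the inactive X chromosome of female cells. Further list members given as examples, such as Ciita, Col5a1, Igfbp6, Hmox1, B2m and Zbp1, were not picked by the naming rule. Their values are descriptions too. Xist was at 9.41, 7.85, 10.55, 7.54 and 8.27 in primary tumors 1 to 5 and at 4.49 and 4.50 in SCC-7. Primary tumor 3 was highest, then primary tumor 1, and no tumor overlapped the SCC-7 arrays, neither of which was above background (at least 8.64-fold higher). Of the 4 Xist probes, 2 were above background in all 5 tumors and none on an SCC-7 array. All 26 probes for Y chromosome genes were at background on all 7 arrays.

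H2-Ea, H2-Eb1 and H2-Ab1, which encode MHC class II chains, were among the genes with the largest fitted differences. H2-Ab1 was at background on both SCC-7 arrays and H2-Eb1 on 1, so their order was not determined. MHC class II molecules display peptides to CD4+ T cells and are made mainly by dendritic cells, macrophages and B cells. H2-Ea, an E alpha chain, was at 13.22, 13.90, 14.97, 12.16 and 11.54 in primary tumors 1 to 5 and at 6.18 and 6.29 in SCC-7. Its difference of 6.92 ± 0.86 (SE, adjusted p = 0.0038) was 121-fold. H2-Eb1, the matching beta chain, was at 12.15, 13.07, 14.63, 11.23 and 10.52 against 5.34 and 5.605 (difference 6.85 ± 1.01, adjusted p = 0.0078). For H2-Ab1, an A beta chain, the tumors were at 11.64, 12.71, 14.07, 11.06 and 10.45, and neither SCC-7 array was above background at 5.43 and 5.35 (adjusted p = 0.0057, at least 82.8-fold higher). The order of tumors was the same for all these chains, with primary tumor 3 highest and primary tumor 5 lowest. Cd74, the invariant chain that accompanies them to the endosome, followed the same order from 14.9 to 11.7 against 7.71 and 7.72. One of 3 H2-Ab1 probes did not show the difference (0.57, adjusted p = 0.617).

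The promoters of called class II genes are shown because these genes moved together. Of 5 called members of the list (H2-Ab1, H2-Eb1, H2-DMa, H2-DMb1 and Cd74), 3 had an entry in the RefSeq promoter table used here, whose windows run from 250 bases before to 50 bases after the start of each gene on GRCm38.p6. Capitals mark CCAAT on either strand, the box bound by NF-Y, and the longest stretch of letters shared by both windows, AACTGATGATGCT.
H2-Eb1, chr17:34305617-34305916, plus strand: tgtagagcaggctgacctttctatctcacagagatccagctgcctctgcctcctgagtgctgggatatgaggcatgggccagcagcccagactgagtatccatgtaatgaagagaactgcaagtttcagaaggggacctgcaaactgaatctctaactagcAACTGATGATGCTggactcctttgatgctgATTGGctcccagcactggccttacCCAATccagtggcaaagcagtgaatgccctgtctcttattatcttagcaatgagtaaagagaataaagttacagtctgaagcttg
H2-DMb1, chr17:34152941-34153240, plus strand: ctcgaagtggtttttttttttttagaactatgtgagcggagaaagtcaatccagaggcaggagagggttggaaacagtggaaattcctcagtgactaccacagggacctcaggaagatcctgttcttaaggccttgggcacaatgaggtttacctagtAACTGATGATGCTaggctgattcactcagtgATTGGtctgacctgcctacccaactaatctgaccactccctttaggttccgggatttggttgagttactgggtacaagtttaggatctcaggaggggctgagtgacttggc
The shared stretch of 13 bases began 89 bases before the start in H2-Eb1 and 92 in H2-DMb1, and CCAAT on the reverse strand followed it at 59 and 61 bases before the start. The stretch was chosen after both windows were seen. CCAAT was in 37.9% of 27025 promoter windows on either strand and the shared stretch in 3 windows (0.0111%), these and Slc39a10. The H2-DMa window held no CCAAT. None of the 3 windows held the interferon response element, TTTGAA (found in promoters of mitosis genes) or ACGTG (the core of the hypoxia response element) on either strand, which were in 3.49%, 18.1% and 19.7% of all windows. H2-DMa and H2-DMb1, which encode the editor that loads peptides onto class II, were called higher as well (3.81 ± 0.65, adjusted p = 0.014, and 3.43, adjusted p = 0.047).

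Of the 15 genes on the list for MHC class II and dendritic cells, 11 were measured. Of these 5 were called higher, against 6.06% of all genes. The other 6 were not called. They included Ciita, the master regulator of class II transcription (3.20, adjusted p = 0.17), and H2-Aa, whose single probe was above background in 2 tumors only (0.81, adjusted p = 0.491). The dendritic cell genes Clec9a and Zbtb46 differed by 1.07 and -0.997 and missed the threshold. The median of the list was 3.20. Its median tumor difference from SCC-7 was 5.43 in primary tumor 3 and 0.81 in primary tumor 5. All 5 calls were lost when either SCC-7 array was left out (adjusted p = 0.0825 and 0.0863 for H2-Ab1).

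Most macrophage genes were called higher. Of 17 measured genes 12 were called higher, against 6.06% of all genes, and none lower, with a median difference of 3.97. Of these 17, 11 were above background on an SCC-7 array too, and 9 of those were called. Lyz2, the lysozyme of phagocytes, was at 13.31, 14.03, 14.15, 14.34 and 14.19 in primary tumors 1 to 5 and at 9.0003 and 9.0066 in SCC-7 (difference 5.00 ± 0.30 SE, adjusted p = 0.00025), though 1 of its 3 probes was not called (0.83). Csf1r, the receptor for the macrophage growth factor and a defining marker of the type, was at 9.53, 10.30, 9.63, 9.94 and 9.96 against 6.29 and 6.02 (3.72 ± 0.26, adjusted p = 0.00037). Both genes varied little among the tumors. Adgre1, the F4/80 antigen, was at 8.49, 9.19, 7.24, 9.08 and 9.004 and not above background on either SCC-7 array (adjusted p = 0.0052, at least 7.93-fold higher). Of its 3 probes 1 was not called (2.08, adjusted p = 0.178). Cd68 was not analysed here.

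Of the 17 macrophage genes, 11 were lowest in primary tumor 3 among the tumors and 1 was highest there. C1qc, a chain of the complement starter C1q, was at 12.24, 13.25, 11.40, 13.14 and 13.42 in primary tumors 1 to 5 and at 7.77 on both SCC-7 arrays (4.92 ± 0.55, adjusted p = 0.0026). Mrc1, the mannose receptor CD206, was at 11.57, 12.34, 9.48, 12.44 and 12.13 against 6.92 and 6.65 (4.81 ± 0.78, adjusted p = 0.011). In both, primary tumor 3 was lowest of the tumors and still above both SCC-7 arrays. The mean level of the macrophage list was 8.65 in primary tumor 3 and 9.43 to 10.3 in the others. Without primary tumor 3 the list had 15 calls among 16 genes, while over all 9450 genes 892 were called higher and 502 lower. Siglec1, the sialoadhesin of tissue macrophages, was at 10.2 to 11.2 in the tumors, highest in primary tumor 3, with neither SCC-7 array above background (adjusted p = 0.00023, at least 30.8-fold higher). Ctsh, a lysosomal protease, also highest in primary tumor 3, was 58.5-fold higher (5.87 ± 0.39, adjusted p = 0.00032).

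Complement and chemokine genes added to this picture. Of 8 complement genes 3 were called higher, against 6.06% of all genes. Cfp, which encodes properdin, was at 12.22, 12.80, 13.04, 12.57 and 12.23 in primary tumors 1 to 5 and at 8.36 and 8.19 in SCC-7 (4.30 ± 0.28, adjusted p = 0.00028), and C4b differed by 4.12 ± 0.32 (adjusted p = 0.00067). C6 was called as well (2.71 ± 0.66, adjusted p = 0.0439), but not without primary tumor 1, 4 or 5 (adjusted p = 0.0695 to 0.0774). Its other probe was not called (1.31, adjusted p = 0.129). Without primary tumor 3 the list had 5 genes higher and 1 lower, against 892 and 502 of 9450 genes.

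Among 23 measured chemokine ligands, the small proteins that draw leukocytes into tissue, 9 were called higher, against 6.06% of all genes, and none lower, with a median of 2.80. Of these 9, 5 were at background on both SCC-7 arrays. Ccl8, a ligand for monocytes, was at 12.10, 12.35, 10.68, 11.91 and 10.64 in primary tumors 1 to 5 and at 6.62 and 6.92 in SCC-7 (4.76 ± 0.53, adjusted p = 0.0026). Ccl12 differed by 4.27 ± 0.45 (adjusted p = 0.0021) and Cxcl16 by 4.66 ± 0.53 (adjusted p = 0.0027). Ccl4, not above background in SCC-7, was at least 12.7-fold higher (adjusted p = 0.0021). Cxcl1, a neutrophil ligand chosen after its values were seen, went the other way. It was at 5.36, 5.33, 9.14, 5.81 and 6.76 in the tumors and at 9.67 and 9.68 in SCC-7, with primary tumor 3 close to the cultured cells (-3.20, adjusted p = 0.086). Without primary tumor 3 it was called lower (-3.89, adjusted p = 0.0015). The list then had 16 genes higher and 1 lower of 21, against 892 and 502 of 9450 genes. Without primary tumor 3 Cxcl9 (3.29, adjusted p = 0.0016) was among those called.

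Most mast cell genes were at background in SCC-7 and spread widely among the tumors. Tpsab1, a tryptase of mast cell granules, was at 11.89, 14.08, 7.92, 11.02 and 11.09 in primary tumors 1 to 5 (adjusted p = 0.037, at least 48.1-fold higher). Cpa3, the granule carboxypeptidase, was at 9.72, 12.25, 6.98, 8.94 and 8.85 (adjusted p = 0.042, at least 13.3-fold higher), though 1 of its 3 probes was not called (0.98). Cma2, a chymase outside the list, was at 10.98, 13.36, 8.61, 9.83 and 9.41 (adjusted p = 0.0209, at least 28.3-fold higher). In each, primary tumor 2 was highest and primary tumor 3 lowest, yet above SCC-7. Of 9 measured genes of the list, 8 were not above background in SCC-7 and 4 were called (Tpsab1, Mcpt4, Cpa3 and Kit), against 6.06% of all genes, all of them at background in SCC-7. Without background correction, with the authors' normalized intensities or without the filter on dim probes, 1 of the list was called. The defining markers Cma1 and Tpsb2 were at least 9.78-fold and 18.8-fold higher and missed the threshold (adjusted p = 0.0999 and 0.0646). The calls of Tpsab1, Mcpt4 and Cpa3 were lost without primary tumor 1, 4 or 5 (adjusted p = 0.0556 to 0.077), where 1 of the 9 genes was called. With primary tumor 3 left out 6 were called, against 892 of 9450 genes called higher and 502 lower.

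Of 17 measured endothelial genes, 13 were called higher, against 6.06% of all genes, and none lower, with a median of 3.27. 12 of the 17 were above background in the tumors only, and 10 of these were called. Emcn, the endothelial surface protein endomucin, was at 8.62, 9.21, 9.16, 8.67 and 8.91 in primary tumors 1 to 5 and at 4.46 and 4.49 in SCC-7 (at least 9.86-fold higher). Egfl7, secreted by endothelium, was at 10.52, 10.07, 12.28, 9.88 and 10.13 against 5.58 and 5.62 (4.98 ± 0.63, adjusted p = 0.0041). One of its 3 probes did not show the difference (0.19, adjusted p = 0.641). Cdh5, or VE-cadherin, which joins endothelial cells to each other, was at 7.22 to 8.60 and at least 5.42-fold higher (adjusted p = 0.0026). The level of Emcn was nearly the same in all 5 tumors, whereas Egfl7, Plvap, Robo4 and Pecam1 stood out in primary tumor 3. Kdr, the main VEGF receptor and a defining marker, did not follow. Its probe was above background on both SCC-7 arrays and in 1 tumor (-0.67, adjusted p = 0.062). Without SCC-7 (1) or SCC-7 (2) 5 and 4 endothelial genes were called.

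Fibroblast and matrix genes were higher for some members only. Dcn, decorin of connective tissue and a defining marker, was at 12.50, 12.49, 13.01, 12.16 and 12.01 in primary tumors 1 to 5 and at 7.9995 and 7.87 in SCC-7 (4.50 ± 0.29, adjusted p = 0.00028), though 1 of its 3 probes was not called (0.97). Acta2, smooth muscle actin of pericytes and activated fibroblasts, was at 12.19, 9.96, 12.87, 10.49 and 11.29 against 6.11 and 6.19 (5.21 ± 0.75, adjusted p = 0.0073). Thy1 was also called (4.62, adjusted p = 0.0071). Pdgfra, also a defining marker, was bright on both sides, at 9.19 to 9.84 in the tumors and 9.72 and 9.83 in SCC-7 (adjusted p = 0.324). Pdgfrb, the remaining defining marker, had a probe but was above background on fewer than 2 of the 7 arrays. Dcn, Acta2 and Thy1 were the 3 calls among 14 measured genes, against 6.06% of all genes. Without primary tumor 3 or 5 there were 5 and 6 calls. Over all genes 892 of 9450 and 462 of 9800 were called higher in these 2 fits.

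Of 14 collagen chains 6 were called higher, against 6.06% of all genes, with a median of 1.01, and 3 of the 6 were at background in SCC-7. Col1a1, the main chain of fibrillar collagen, was at 8.33, 8.04, 9.76, 9.67 and 8.37 in primary tumors 1 to 5 and not above background in SCC-7 (adjusted p = 0.0038, at least 9.31-fold higher). Col6a1 was at 11.45, 12.003, 11.49, 12.76 and 12.05 against 8.47 and 8.19 (3.62 ± 0.37, adjusted p = 0.0019), though 1 of its 3 probes was not called (0.75). Col18a1 and Col15a1, of vessel basement membranes, differed by 2.98 and 2.78 and were called, though the other Col18a1 probe was not (1.09, adjusted p = 0.0581). Col3a1 and Col5a1 differed by 0.59 and -0.83 and were not called. Fn1, fibronectin, was not above background in SCC-7 and was highest in primary tumors 4 and 5, at 10.8 and 10.9 (at least 15.3-fold higher, adjusted p = 0.0165), while its other probe was not called (0.62).

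Genes of the insulin-like growth factor system split by member. Igf1, the ligand, was at 8.34, 8.58, 9.20, 9.23 and 8.72 in primary tumors 1 to 5 and at 5.71 and 5.51 in SCC-7 (3.21 ± 0.30, adjusted p = 0.0013). Igfbp7, a binding protein of vessel walls, was at 10.90, 10.75, 12.42, 10.83 and 10.74 against 5.67 and 5.50 (5.54 ± 0.48, adjusted p = 0.00098). Its fitted difference was 46.7-fold, with 1 SCC-7 array at background. Igfbp3 was at least 8.88-fold higher (adjusted p = 0.012). These 3 of 8 members were called higher, against 6.06% of all genes. The other 5 were not called, among them Igf2 at -1.19 and Igfbp6 at -2.34.

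Hba-a1, alpha globin, was at 13.07, 14.25, 12.29, 14.04 and 13.91 in primary tumors 1 to 5 and at 8.44 and 8.51 in SCC-7 (5.04 ± 0.53, adjusted p = 0.0021). Alas2, the heme enzyme of red cell precursors, was called higher as well (at least 3.39-fold, adjusted p = 0.0025). For both, primary tumor 3 was lowest and primary tumor 2 highest. The list had 2 calls among 4 measured genes, against 6.06% of all genes called higher.

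**Figure D2:**
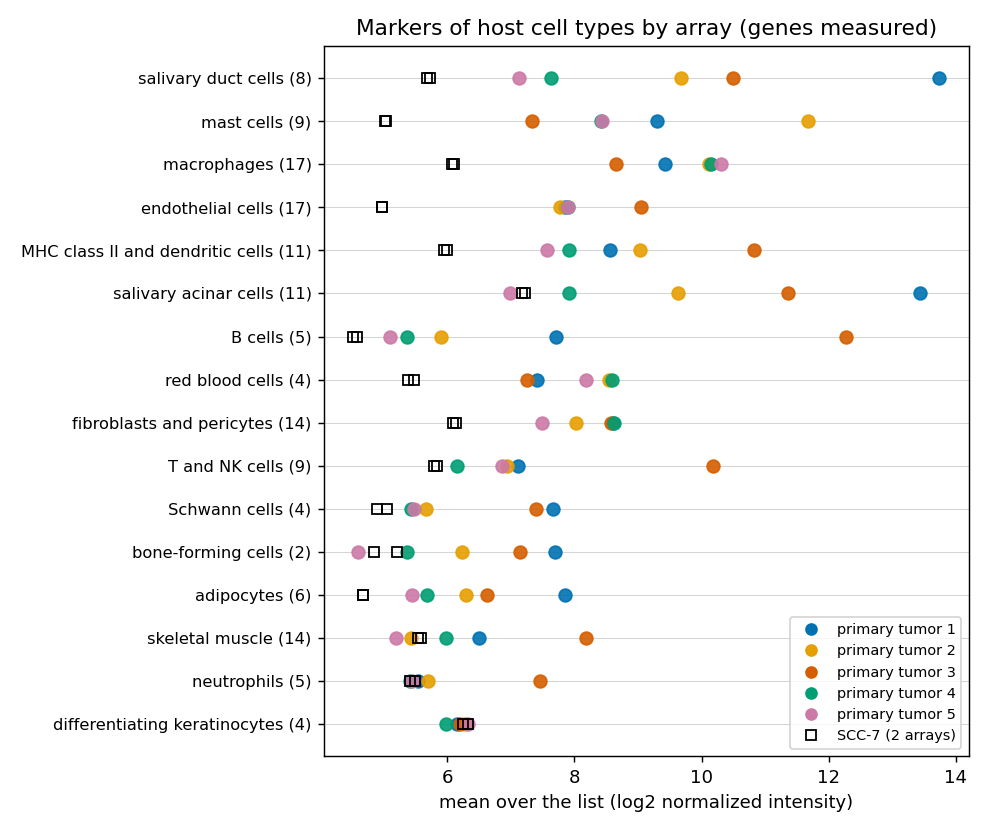
Mean log2 normalized intensity over each list of host cell markers (x axis) for each array, with the number of genes measured in parentheses. Macrophage and endothelial lists lie clear of SCC-7 in every tumor, while the tumors differ widely among themselves for B cells (highest at 12.3 in primary tumor 3) and salivary ducts (highest at 13.7 in primary tumor 1).

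Most lymphocyte genes were highest in primary tumor 3, 8 of 9 measured T and NK cell genes and all 5 B cell genes. Cd8b1 of the T and NK cell list was highest in primary tumor 1 (11.47) and bright in SCC-7 too (10.83 and 10.87). Cd3g, a chain of the T cell receptor complex, was at 5.79, 6.05, 10.38, 5.36 and 5.69 in primary tumors 1 to 5 and at 4.53 and 4.27 in SCC-7. Cd79b, of the B cell receptor, was at 9.19, 7.87, 13.35, 6.45 and 5.92 against 4.50 and 5.12. In both genes the 5 tumors lay above the SCC-7 arrays, and primary tumor 3 was far above the rest. With that spread neither was called (adjusted p = 0.285 and 0.218). No gene was called through its brightest probe in the lists for T and NK cells (9 measured), B cells (5) or neutrophils (5). Over all genes 6.06% were called higher and 3.3% lower. Prf1, of the T and NK cell list, was at 8.42 and 8.39 in SCC-7 (0.93, adjusted p = 0.263). Its second probe was called higher (2.14, adjusted p = 0.0436). Without primary tumor 3 Cd3g was called (1.27, adjusted p = 0.0115), 1 of 4 calls among 7 T and NK cell genes. Over all 9450 genes 892 were then called higher and 502 lower.

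In that tumor, 3 chemokines that organize lymphoid tissue were high, chosen after their values were seen. Ccl21a was at 10.15, 5.03, 14.11, 5.08 and 4.45 in primary tumors 1 to 5, Ccl19 at 12.3 and Cxcl13 at 12.99 in primary tumor 3. On neither SCC-7 array was any of them above background. For Ccl21a and Ccl19 primary tumors 2, 4 and 5 were at background too. None of the 3 was called (adjusted p = 0.41, 0.6 and 0.411).

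Markers of the salivary gland were highest in primary tumor 1. Klk1, a kallikrein of salivary ducts, was at 14.42, 11.60, 11.77, 8.51 and 7.15 in primary tumors 1 to 5 and not above background in SCC-7 (at least 33.8-fold higher, adjusted p = 0.0995). Smgc, a mucin-like protein of salivary glands, was at 14.12, 10.42, 10.19, 5.87 and 4.38 (adjusted p = 0.26). Egf, made by duct cells, was above background only in primary tumors 1 and 3, at 9.95 and 5.69. The mean over the duct list was 13.7 in primary tumor 1, 9.67 in 2, 10.5 in 3, 7.63 in 4 and 7.12 in 5, against 5.68 and 5.72 in SCC-7. None of its 8 measured genes was called, against 6.06% of all genes called higher and 3.3% lower. For the duct list primary tumor 1 was highest, primary tumor 5 lowest, and each tumor lay above SCC-7.

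Some salivary genes were bright in cultured SCC-7 as well. Aqp5, the water channel of gland cells and a defining acinar marker, was at 13.3 and 13.2 in SCC-7 and at 12.76, 9.51, 9.53, 7.66 and 6.38 in primary tumors 1 to 5 (-4.08, adjusted p = 0.123). Without primary tumor 1 it was called lower (-5.01, adjusted p = 0.027). Dcpp1 was at 9.85 and 9.87 in SCC-7. Bpifa2, a secreted salivary protein, was at 11.1 and 11.2 in SCC-7 and at 14.81, 12.74, 14.68, 13.70 and 14.16 in the tumors, and it was the only one of 11 measured acinar genes called (2.84 ± 0.54, adjusted p = 0.0211). This 1 call among 11 compares with 6.06% of all genes called higher. It was lost without primary tumor 5 (adjusted p = 0.0508).

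Muscle, fat and nerve were uneven in the same way. Acta1, actin of skeletal muscle, was highest in primary tumor 3 at 10.6 and at background in primary tumor 2. None of 14 measured muscle genes was called, against 6.06% of all genes called higher and 3.3% lower. Adipoq, the fat hormone adiponectin, was at 8.21 in primary tumor 1 and at background in 4 and 5. Lpl and Pparg, which fat cells share with macrophages and endothelium, were the 2 calls among 6 fat genes, against 6.06% of all genes. They were at least 12.4-fold and 2.20-fold higher (adjusted p = 0.0081 and 0.0054). Sox10, of nerve sheath cells and also of gland epithelium, was at 9.93 in primary tumor 1 and at background in 4 and 5.

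**Figure D3:**
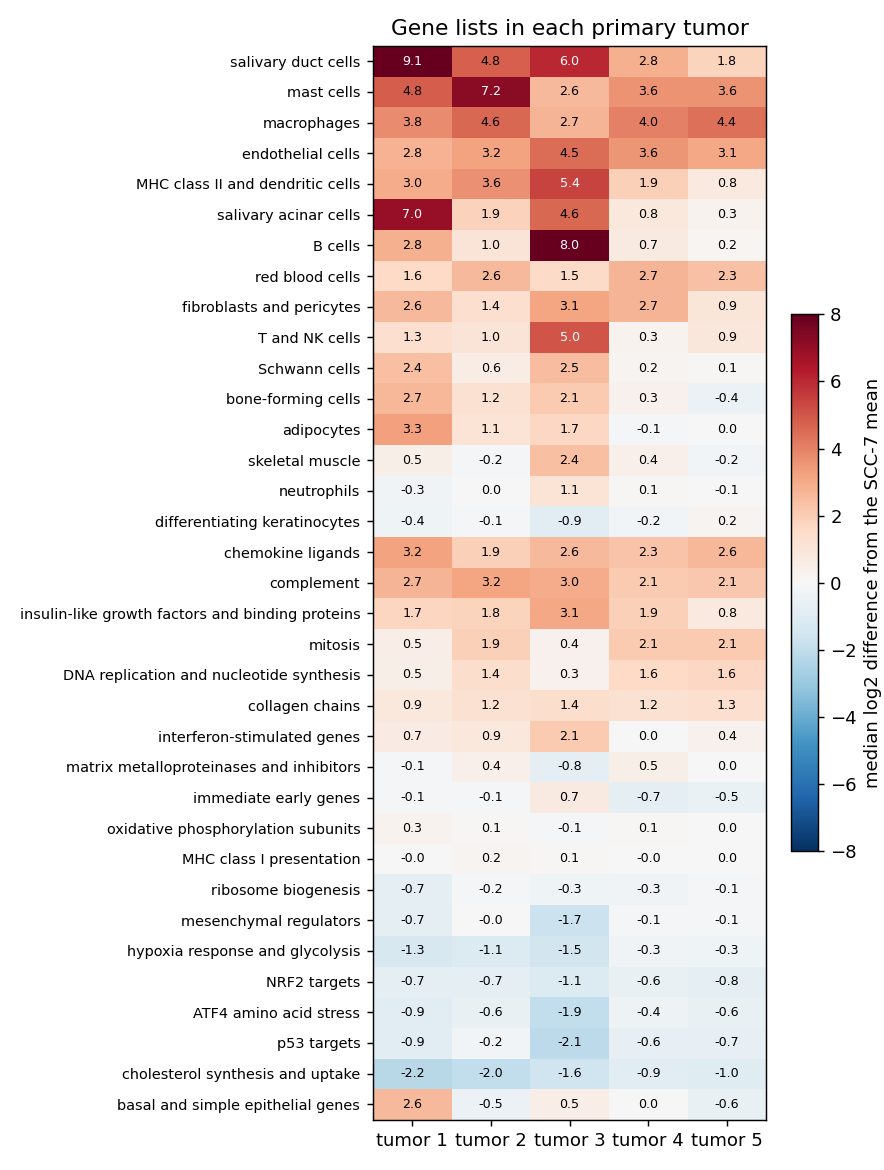
Median log2 difference of each gene list from the SCC-7 mean in each of the 5 primary tumors, with red above and blue below SCC-7. Salivary duct genes range from 1.8 to 9.1 and B cell genes from 0.2 to 8.0, while macrophage genes range from 2.7 to 4.6 and oxidative phosphorylation stays near 0.

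In the other direction, 327 genes (3.3%) were called lower in the tumors, most of them above background in at least 1 tumor. Aldh3a1, an aldehyde dehydrogenase of squamous and corneal epithelium, led them. It was at 14.7 and 14.8 in SCC-7 and at 9.28, 10.24, 8.54, 10.10 and 6.90 in primary tumors 1 to 5 (-5.74 ± 0.86 SE, adjusted p = 0.0083), 53.4-fold lower. Cdsn, corneodesmosin of the outer epidermis, was at 9.94 and 9.89 in SCC-7 and not above background in any tumor (-5.02 ± 0.21, adjusted p = 0.00015, at least 26.2-fold lower), and its other 2 probes were called lower too. Cdsn was thus above background in both SCC-7 samples and in no tumor.

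The remaining large losses covered secreted factors, membrane proteins and enzymes. The proliferin genes Prl2c2, Prl2c3 and Prl2c4, growth factors of the prolactin family, fell by 4.84, 4.89 and 4.93. Their sequences are close to each other, so the probes may read shared transcripts and the 3 are not independent, and in primary tumors 2 and 3 all of them were at background. Ier3, an immediate early gene that protects from cell death, was at 13.8 and 13.7 in SCC-7 and at 9.50, 9.29, 9.88, 9.63 and 9.63 in primary tumors 1 to 5 (-4.20 ± 0.21, adjusted p = 0.00018). Gpnmb, a glycoprotein of lysosomes and melanosomes that macrophages also make, was at 14.0 on both SCC-7 arrays and at 9.92, 10.85, 9.42, 9.97 and 9.05 (-4.19 ± 0.45, adjusted p = 0.0022), and all 4 of its probes were called lower. The tumor values of Ier3 lay within 0.6 of each other. Ptgds, the prostaglandin D2 synthase, fell by 4.29 and Cyp2c23 by 4.48, with 3 and 4 of the tumors at background, so these are fitted differences against background. Fgf7, or keratinocyte growth factor, fell by 3.91 and Cdh26 by 4.35. The call of Cdh26 was lost without primary tumor 5 (adjusted p = 0.05001).

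Of 88 called genes that the naming rule gave, 68 kept their call whichever tumor was left out and 24 kept it without any single array. These were Ctsh, Igfbp7, Siglec1, Lyz2, Csf1r, Esam, Robo4, Dcn, Hba-a1, Col6a1, Col18a1, Cfp, C4b, Ccl12, Ccl4 and Igf1 among higher genes. Among lower genes they were Cdsn, Prl2c2, Prl2c3, Prl2c4, Cyp2c23, Ptgds, Ier3 and Gpnmb. These calls are of the brightest probe, and Lyz2, Dcn, Col6a1 and Col18a1 each had another probe that was not called.

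**Figure D4:**
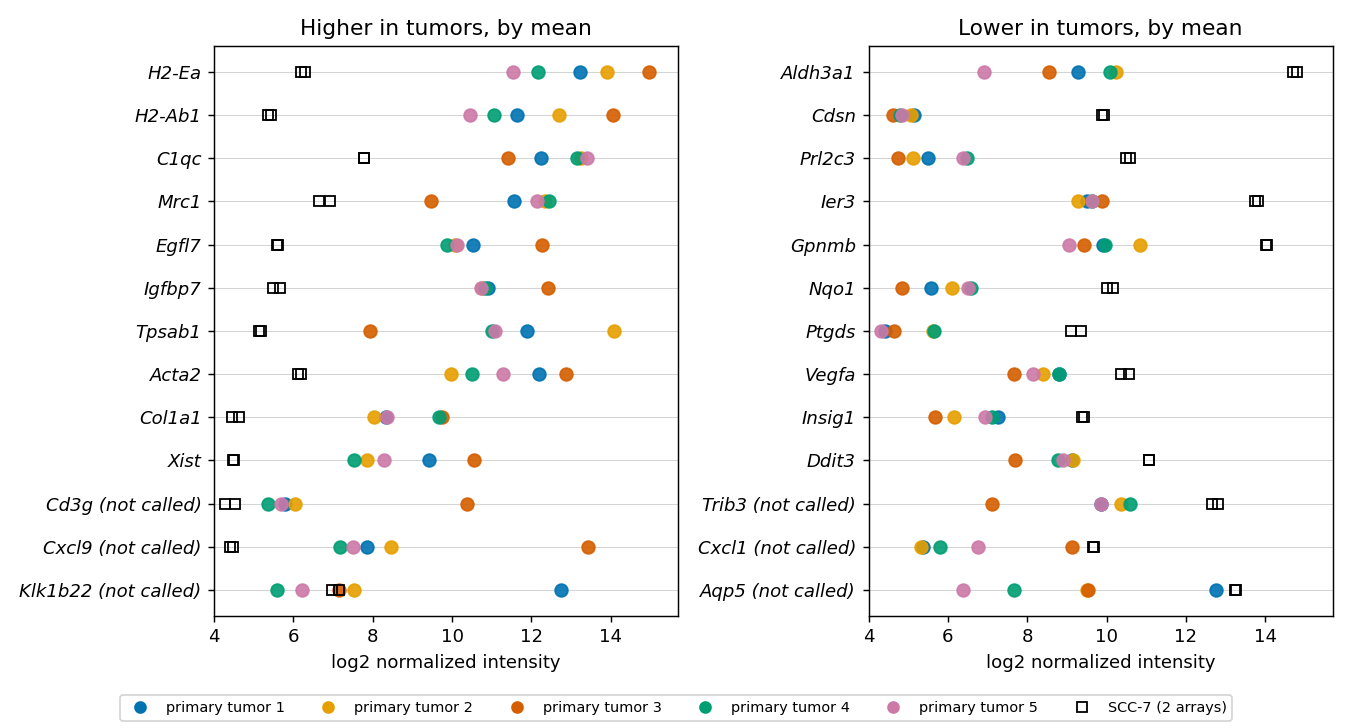
Log2 normalized intensity of 26 genes on each array (circles, primary tumors by color; open squares, the 2 SCC-7 arrays). H2-Ea reaches 14.97 in primary tumor 3 against 6.29 or less in SCC-7, and Cdsn lies at 5.15 or less in all tumors against 9.89 or more in SCC-7. Trib3, Cxcl1 and Aqp5 lie below SCC-7 in every tumor and were not called.

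NRF2 is the factor that switches on antioxidant and detoxifying enzymes. Of 12 measured targets 4 were called lower, against 3.3% of all genes, and none higher, with a median of -0.92. Nqo1, a quinone reductase, was at 10.0 and 10.2 in SCC-7 and at 5.58, 6.10, 4.84, 6.58 and 6.50 in primary tumors 1 to 5 (-4.16 ± 0.47, adjusted p = 0.0027), at background in primary tumor 3. Gstm1 (-2.09 ± 0.47, adjusted p = 0.0362), Gclm (-1.34, adjusted p = 0.0428) and the ferritin gene Ftl1 (-1.096, adjusted p = 0.0157) were the others. Hmox1, heme oxygenase and also a macrophage gene, was at 1.72 (adjusted p = 0.064). Ftl1 and Gclm were not called with median scaling, which left 2 genes lower and 1 higher. Gclm was not called without primary tumor 1, 2 or 5, nor Gstm1 without 2, 4 or 5 (adjusted p = 0.0588 to 0.0796).

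ATF4 is the factor that answers amino acid shortage and endoplasmic reticulum stress. For the 18 measured genes of its list all differences were below 0, with a median of -0.92 against -0.11 over all genes. Only 1 was called lower, against 3.3% of all genes. That was Ddit3, or CHOP, at 11.1 on both SCC-7 arrays and at 9.13, 9.16, 7.69, 8.77 and 8.89 in primary tumors 1 to 5 (-2.35 ± 0.41, adjusted p = 0.0147). Trib3 was at 12.8 and 12.7 in SCC-7 and at 9.85, 10.37, 7.11, 10.58 and 9.86 in the tumors. In both genes primary tumor 3 was lowest. Without it Trib3 was called (-2.59, adjusted p = 0.0012) and the list had 4 calls of 17. Over all 9450 genes 892 were then called higher and 502 lower. Atf4 itself differed by -0.99 (adjusted p = 0.12).

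In the hypoxia and glycolysis list 3 of 16 measured genes were called lower, against 3.3% of all genes, and none higher (median -0.82). Vegfa, the vessel growth factor, was at 10.35 and 10.56 in SCC-7 and at 8.80, 8.39, 7.67, 8.79 and 8.13 in primary tumors 1 to 5 (-2.10 ± 0.34, adjusted p = 0.0115), with a second probe called lower too. Ndrg1 fell by 1.87 (adjusted p = 0.0134) and Ddit4 by 1.40 (adjusted p = 0.0354). Car9, a carbonic anhydrase switched on by low oxygen, differed by 1.19 in the other direction (adjusted p = 0.13), and the glycolytic enzymes Pgk1 and Ldha by -0.39 and -0.42. Ndrg1 and Ddit4 were not called with median scaling (adjusted p = 0.0552 and 0.0544), nor Ddit4 without primary tumor 2 or 5 (0.0712 for both).

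Cholesterol synthesis genes, which SREBP2 switches on when sterols are short, had a median of -1.68, the lowest of the 35 lists. Insig1, which holds that switch in check and is itself a target, was at 9.37 and 9.44 in SCC-7 and at 7.27, 6.15, 5.67, 7.12 and 6.95 in primary tumors 1 to 5 (-2.77 ± 0.46, adjusted p = 0.0121), though 1 of its 3 probes was not called (-0.88). Lss, lanosterol synthase, was at 8.80 and 8.85 against 6.87, 6.91, 7.05, 7.49 and 7.38 (-1.68 ± 0.24, adjusted p = 0.0068). These were the 2 calls among 13 measured genes, against 3.3% of all genes called lower. Sqle, squalene epoxidase, was at 11.8 on both SCC-7 arrays and at 8.82, 9.10, 9.07, 11.07 and 10.63, so primary tumors 4 and 5 lay closer to culture (-2.09, adjusted p = 0.088). In 9 of 13 genes all tumors lay below both SCC-7 arrays, as did 28.8% of all genes. Without primary tumors 1 and 3, 7 were called lower, against 6.3% of all genes in that fit.

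No oxidative phosphorylation gene was called, against 6.06% of all genes called higher and 3.3% lower. The differences of the 19 measured subunits ran from -0.43 to 0.45 with a median of 0.02. Atp5b was at 14.51, 14.57, 14.25, 14.68 and 14.65 in primary tumors 1 to 5 and at 14.4 and 14.5 in SCC-7, within the spread of the tumors. Immediate early genes had 1 call in each direction among 11, against 6.06% of all genes higher and 3.3% lower. Fos was higher (at least 2.70-fold, adjusted p = 0.028, not called without primary tumor 4 at 0.0534) and Ier3 lower. Among 12 p53 targets only Sesn1 was called higher (1.47 ± 0.26, adjusted p = 0.016), against 6.06% of all genes, and none lower. Of the 3 Sesn1 probes 1 was not called (0.94). The median of the list was -1.01 and reached -2.07 in primary tumor 3.

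Genes of cell division were highest in primary tumors 2, 4 and 5. All 17 measured mitosis genes had differences above 0, with a median of 1.43 against -0.11 over all genes. Of these 3 were called higher, against 6.06% of all genes. Kif11, a spindle motor, was at 6.32, 7.67, 6.45, 7.87 and 7.78 in primary tumors 1 to 5 and not above background in SCC-7 (at least 3.04-fold higher, adjusted p = 0.0428). Nusap1, a spindle protein, was at 7.44, 8.55, 8.18, 8.62 and 8.87 against 5.998 and 6.52 (2.07 ± 0.40, adjusted p = 0.0211). In both, primary tumors 2, 4 and 5 lay above 1 and 3. The median difference of the list was 1.92, 2.10 and 2.12 in primary tumors 2, 4 and 5, and 0.52 and 0.35 in 1 and 3.

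DNA replication genes showed the same pattern. Of 26 measured, 7 were called higher, against 6.06% of all genes, and none lower (median 1.07), and 2 were called without the filter on dim probes. Mcm5, of the replicative helicase, was at 10.39, 11.46, 11.01, 11.77 and 11.69 in primary tumors 1 to 5 and at 9.32 and 9.33 in SCC-7 (1.94 ± 0.39, adjusted p = 0.0249), and Fen1, a flap endonuclease, differed by 1.69 ± 0.26 (adjusted p = 0.00895). Primary tumors 1 and 3 correlated least with the other tumors and also had the lowest levels of these lists, so a fit without them is a description. In that fit all 17 mitosis genes and 21 of 25 replication genes were called higher, against 12.6% of all genes. With median scaling 1 replication gene was called. Calls of Bub1b, Kif11, Lig1, Mcm4, Mcm5 and Tk1 were lost without primary tumor 2, 4 or 5 (adjusted p = 0.0501 to 0.0846) and that of Nusap1 without 4 (0.0507). The other probes of Lig1 (0.66 and 0.72), Mcm4 (0.49 and 0.78) and Tk1 (1.26) were not called over all 7 arrays. Without primary tumor 4 no mitosis gene was called, and 1 was called without 2 or 5.

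**Figure D5:**
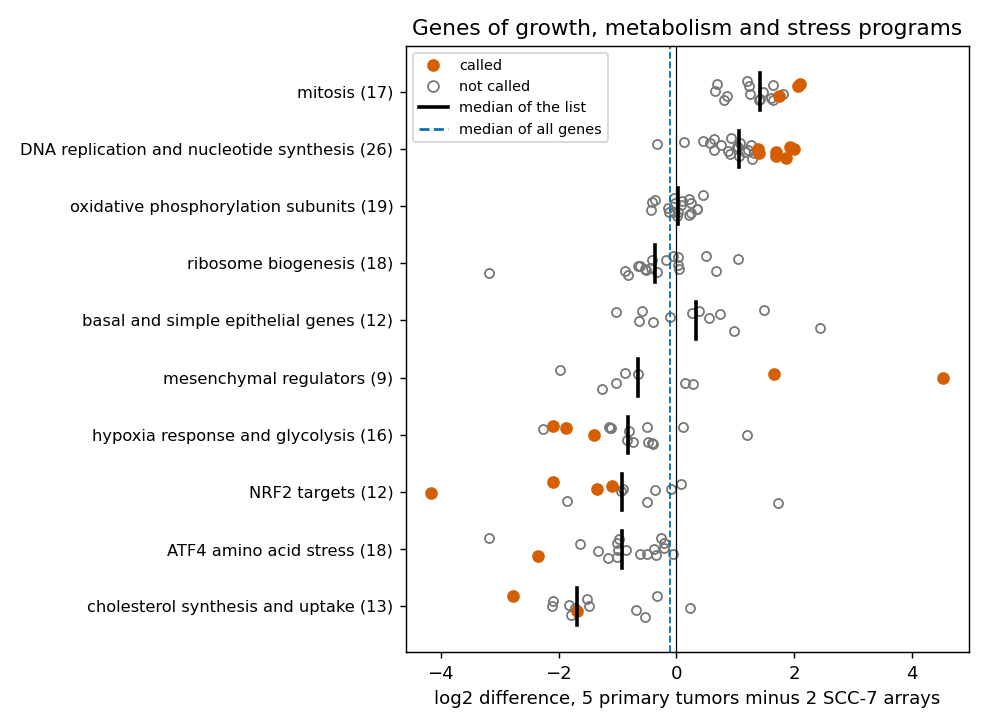
Log2 difference between the 5 primary tumors and the 2 SCC-7 arrays for each measured gene of 10 lists (filled, called; open, not called), with the median of each list and of all genes (-0.11). Mitosis and replication genes lie to the right of 0, oxidative phosphorylation around it, and cholesterol, ATF4, NRF2 and hypoxia genes mostly to the left.

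Epithelial identity genes differed among tumors more than from culture. Krt8 was at 10.99, 9.23, 8.55, 11.30 and 11.29 in primary tumors 1 to 5 and at 10.398 and 10.37 in SCC-7 (adjusted p = 0.936). Krt14, a keratin of basal cells, was at 10.01, 5.94, 7.43, 5.18 and 4.83 against 7.21 and 7.31. Trp63 was at 7.09, 4.43, 5.01, 4.36 and 4.38 against 5.93 and 6.23. In primary tumors 4 and 5 both Krt14 and Trp63 were at background, whereas primary tumor 1 lay above SCC-7. None of 12 measured genes was called over all 5 tumors, against 6.06% of all genes called higher and 3.3% lower. Without primary tumors 1 and 3, Krt14 (-1.98, adjusted p = 0.0045), Krt17 (-1.20, adjusted p = 0.001) and Trp63 (-1.64, adjusted p = 0.00043) were called lower, against 6.3% of all genes in that fit, which leaves out the tumors with the highest levels of Krt14 and Trp63. Trp63 was also called lower without primary tumor 1 alone (-1.55, adjusted p = 0.0182).

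Mesenchymal regulators were mixed. Beside Fn1, Zeb2 was called higher (1.66 ± 0.26, adjusted p = 0.0099), a repressor of E-cadherin that macrophages also express, while its other probe was not called (-0.17). Twist2 was at 10.9 and 11.0 in SCC-7 and at 8.40, 9.82, 6.27, 10.25 and 9.99 in the tumors (-1.98, adjusted p = 0.243), lowest in primary tumor 3. Vim differed by 0.15.

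Of the matrix metalloproteinases and their inhibitors, 2 of 11 were called lower, against 3.3% of all genes. Mmp13, a collagenase, was at 8.54 and 8.44 in SCC-7 and at 5.10, 6.74, 5.46, 6.12 and 7.29 in primary tumors 1 to 5 (-2.35 ± 0.58, adjusted p = 0.0471). Mmp11, or stromelysin 3, fell by 2.52 (adjusted p = 0.0428). Neither was called with median scaling. Mmp11 was not called without primary tumor 1, 2, 4 or 5, nor Mmp13 without 1, 2 or 4 (adjusted p = 0.0507 to 0.0867). Sbsn, of differentiating keratinocytes, was the 1 call among 4 measured genes of that list (-1.14, adjusted p = 0.035), against 3.3% of all genes called lower. Of the 19 listed genes 18 had a probe, but only these 4 were above background on at least 2 of the 7 arrays. The defining markers Krt1, Krt13 and Lor were not measured. The Sbsn call was lost without primary tumor 4 or 5 (0.0739 and 0.0748).

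Interferon-stimulated genes had 2 calls among 19, both higher, against 6.06% of all genes. Rsad2, or viperin, was at 8.82, 9.54, 9.20, 8.31 and 9.31 in primary tumors 1 to 5 and at 5.93 and 6.16 in SCC-7 (2.99 ± 0.34, adjusted p = 0.0028). Oasl1 was at least 5.00-fold higher (adjusted p = 0.0064), though 1 of its 3 probes was not called (1.75, adjusted p = 0.0653). The 17 others included Isg15 at -0.25 and Zbp1 at -1.74. Without primary tumor 3 there were 6 higher and 2 lower of 18, against 892 and 502 of 9450 genes.

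Most MHC class I genes did not follow class II. B2m, the shared light chain, differed by -0.04, and the median of 11 genes was -0.01. Of the 11, 2 were called higher, against 6.06% of all genes. Both were highest in primary tumor 3, as class II was, and so were 6 of the 11 in all. H2-T23 was called (2.46 ± 0.54, adjusted p = 0.0331, lost without primary tumor 2 or 5 at 0.0684 and 0.0568). The other 2 probes of H2-T23 were called higher too (5.11, adjusted p = 0.0126, and 2.845, adjusted p = 0.031). H2-K1 was called through its brightest probe (3.48 ± 0.63, adjusted p = 0.0179), while its other 2 probes differed by -0.34 and 0.81 and were not. The probes of H2-K1 therefore disagree, and its call holds for 1 of 3 only. Class I genes are close to one another in sequence.

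Mybbp1a, the transcriptional co-regulator on which the study centered, was at 5.46, 9.92, 4.96, 9.39 and 9.08 in primary tumors 1 to 5 and at 10.9 and 11.0 in SCC-7. All tumors lay below SCC-7, primary tumors 1 and 3 by far the most, and primary tumor 3 was at background. Over all 5 the difference was -3.18 ± 1.46 (adjusted p = 0.194) and not called. Without primary tumors 1 and 3 it was -1.50 (adjusted p = 0.0057) and called lower, as were 6.3% of all genes in that fit. That fit leaves out the tumors with the lowest Mybbp1a levels, so its value is a description. Of its 3 other probes 1 was called lower (-1.21, adjusted p = 0.0168). None of the 18 measured ribosome biogenesis genes, among which Mybbp1a was counted, was called, and their median was -0.36. Over all genes 6.06% were called higher and 3.3% lower.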

How the data were processed

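Biotin-labelled RNA of each sample was read on 1 Illumina mouse WG-6 v2 BeadChip array. The mean bead intensity deposited by the authors was not normalized, and they added a second table of normalized intensity values that was used as an alternative. How that table was normalized is not given in the sources used here. Background was corrected by normexp on 943 negative control entries (offset 16), followed by quantile normalization of the 7 arrays and log2 transformation (limma 3.58.1, R 4.3.3). Groups were compared with lmFit and eBayes, with Benjamini-Hochberg adjustment over 17354 probes. Of 45135 probes 34773 had 1 symbol. The 35 lists held 582 genes, of which 417 were measured, 81 called higher and 14 lower. Members and lists were chosen with earlier results of these data known. Named genes were the 12 largest differences per direction among called genes with no overlap, up to 4 called members per list, or up to 2 of the brightest where none was called, defining markers and Mybbp1a, beside those said to be chosen after seeing values. Further list members given in the text as examples fell outside this rule. "At least" folds set the detected group's mean against the higher of each undetected array's lowest detected signal and the probe's own. On simulated arrays with 200 changed genes, 4%, 56%, 72% and 84% of 2, 4, 8 and 16-fold changes were called.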

Additional observations from a re-analysis of the deposited data

Results flagged for a closer look

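Among 35 lists and 144 named genes, 28 had 1 tumor far from the other 4. The gap to the nearest tumor then exceeded the critical share of the group's range, which chance passes in about 1 in 20 groups. Of the 28, 21 concerned primary tumor 3, 5 primary tumor 1, and 1 each primary tumors 4 and 5. The lists were chosen with earlier results known, some genes after their values were seen, and the share over all genes is not given. Primary tumor 3 also lay furthest from SCC-7 over all genes, with 2027 at least 2-fold higher and 2303 lower. The flags are thus descriptions and not a test of these genes.

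In primary tumor 3 the mean log2 level was highest for the T and NK cell list (10.2, next tumor 7.12), the neutrophil list (7.46, next 5.70) and the endothelial list (9.04, next 7.90). It was lowest for the ATF4 list (8.70, next 9.79) and the p53 list (8.22, next 9.19). The T cell chains Cd3e (9.51) and Cd3g (10.38) and the chemokine Cxcl9 (13.4) were highest there. So were the vessel genes Igfbp7 (12.4), Egfl7 (12.3), Plvap (11.5), Robo4 (10.3) and Pecam1 (9.82). Klhl6 (12.4), S100a8 (11.0), Thy1 (12.1), Egr2 (7.88), H2-K1 (12.7) and Npm1 (13.3) were highest in it too. Ddit3 (7.69) and Trib3 (7.11) were lowest.

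In primary tumor 1 the duct genes Egf (9.95) and Klk1b22 (12.7) and the epithelial genes Trp63 (7.09) and Krt17 (8.003) were highest, and Fen1 was lowest (10.1). Primary tumor 4 was highest for the collagen list (9.31, next 8.84), and primary tumor 5 lowest for Tnni2, a muscle troponin (7.83, next 9.04).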

How the results depend on the processing

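Leaving out 1 array at a time gave 131 to 892 genes higher and 16 to 502 lower, or 173 to 1297 probes higher and 23 to 988 lower, lowest without SCC-7 (2) and highest without primary tumor 3. Without primary tumors 1 and 3 there were 1161 genes (1733 probes) higher and 580 (1071) lower. The count of lower genes (probes) was 110 (194) with median scaling, 204 (355) with the authors' normalized intensities, 532 (1059) with all 12 arrays and 66 (112) at 4-fold. Without background correction 388 probes were lower. Without the filter on dim probes 442 genes were higher and 242 lower. The methods' t-test gave 545 (1090) lower at an unadjusted p, and 363 (503) higher and 196 (383) lower after Benjamini-Hochberg adjustment. The cause was not tested. The replicate numbers are not said to pair tumors with SCC-7 samples. Correlations of deviations lay between -0.0146 and 0.0146, but deviations of 2 SCC-7 arrays mirror each other, so these values cannot decide it. With the replicate block 186 genes (325 probes) were lower.

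The named genes that changed sign had not been called over all 7 arrays. Alpl was at 0.24 with median scaling and 0.056 with the authors' intensities, and Mylpf at -0.012 with 12 arrays. With the replicate block S100a8 was at -0.90, Tnni2 at 0.21, Mylpf at -0.51, Krt14 at 0.72 and Krt17 at 0.58. Without primary tumors 1 and 3, Cd8b1 was at -0.022, S100a8 at -0.17, Krt8 at 0.22, Mylpf at -0.89, Klk1b22 at -0.64 and Krt18 at -0.95. Leaving out 1 array, ranges were -0.32 to 0.11 for Alpl, -0.45 to 1.35 for Klk1b22, -0.34 to 0.99 for Krt18, -0.37 to 0.32 for Krt8, -0.62 to 0.34 for Mylpf, -0.49 to 1.02 for S100a8, -0.31 to 0.090 for Tnni2 and -0.093 to 0.57 for Vim. The number of arrays limits the precision.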
